A study of Mus musculus with 16 samples.

Results

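The miR-29 family was followed through 6 populations of early mouse blood development. Its members on the array were the guide strands mmu-miR-29a, mmu-miR-29b and mmu-miR-29c, taken as every probe outside the controls that carries one of these names. That gave 6 probes, 2 for each member, among 1712 probes for 577 miRs on the array.

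MicroRNA (miR) signal was recorded on 16 one-colour Agilent mouse arrays, each with RNA of one sorted population of bone marrow from female C57Bl/6 mice aged 6 to 8 weeks, with several mice pooled for each replicate. All cells were lineage-negative and c-kit+. The 7 arrays of the HSC subsets comprised long-term stem cells (LT-HSC, Sca1+ CD34- FLT3-, 1 array), short-term HSC (ST-HSC, Sca1+ CD34+ FLT3-, 3 arrays) and multipotent progenitors (MPP, Sca1+ CD34+ FLT3+, 3 arrays). The 9 arrays of the myeloid progenitors came from a separate sort of Sca1- cells, with 3 arrays each. CMP, the common progenitors of the myeloid lines, were gated as middling for both CD34 and the Fc receptor FcRγ, GMP, which give granulocytes and monocytes, as CD34+ FcRγ+, and MEP, which give megakaryocytes and red cells, as CD34- FcRγ-.

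A miR is a short RNA that pairs through its seed, the bases near its 5′ end, with messenger RNAs and lowers their output. Members of the miR-29 family are known to act on the messengers of the DNA methyltransferases, which place and keep methyl groups on DNA, and on those of many matrix proteins. In blood the family has been tied to HSC self-renewal and, at forced high levels, to myeloid leukemia. Its genes lie as pairs, miR-29a with a copy of miR-29b and miR-29c with the other copy, and the partners of a pair are made from a common primary transcript.

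The mature sequences show how alike the members are, and thus how close the probes have to tell them apart. They are given 5′ to 3′ from RefSeq (GRCm38.p6), with the seed (bases 2 to 8) in capitals.
mmu-miR-29a-3p: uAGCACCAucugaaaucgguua
mmu-miR-29b-3p: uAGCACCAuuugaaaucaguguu
mmu-miR-29c-3p: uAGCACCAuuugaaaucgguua
Among 1679 mature miR names in that table, these 3 were the ones with the seed AGCACCA. Counting from the 5′ end, miR-29a and miR-29c differed at 1 of 22 bases, the change C10U. MiR-29b differed from miR-29c by A18G, G21U and U22A, and was 23 bases long against 22. Whether the probes of one member also bind another was not tested, which bears most on miR-29a and miR-29c.

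RefSeq places 4 hairpins at the 2 loci. On chromosome 6, on the minus strand, Mir29a lies at chr6:31062660-31062747 and Mir29b-1 at chr6:31063023-31063093, with 275 bases between them. On chromosome 1, on the plus strand, Mir29b-2 lies at chr1:195037040-195037120 and Mir29c at chr1:195037547-195037634, with 426 bases between them. The pair on chromosome 1 lies within the long noncoding RNA gene A330023F24Rik (chr1:195017399-195037908), and no other gene of the table overlaps the pair on chromosome 6. MiR-29b-3p has 1 sequence over its 2 loci, so its signal is the sum of both and cannot be assigned to either. The annotation of the arrays, on the build mm9, gave the miR-29a probes spans of 19 and 20 bases, the miR-29b probes 20 and 21, and the miR-29c probes 21 and 22.

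All 6 probes were called well above background on all 16 arrays, with 10 spots for each probe. Levels below are log2 of the quantile-normalised signal of the brighter probe of each member, so they rank populations within a member and not one member against another. Equal values on different arrays arise where a probe takes the same rank on both. A miR was called different at an adjusted p under 0.05 in limma, over the 237 miRs that passed the detection filter.

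The arrays lay on 3 slides, and the slide bears on nearly every result of the family. The first 2 replicates of each myeloid population shared slide 1. Replicate 3 of each was on slide 2, as were ST-HSC 1 and the only LT-HSC array, and all MPP arrays shared slide 3 with ST-HSC 2 and 3. Slide 1 was also read on another scanner, with an older software version. The myeloid populations can therefore be compared within slides 1 and 2, and ST-HSC with MPP within slide 3. HSC subsets and myeloid progenitors met only on slide 2, as 2 arrays against 3.

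Some arrays carried signs of other cells or of less RNA. The LT-HSC array had the lowest summed signal (35255 units, against 66755 to 336394 elsewhere) and the fewest miRs well above background (142, against 145 to 226). It also carried miR-451, an erythroid miR, at 11.15 on the log2 scale, against 5.11 to 8.10 on the other HSC arrays and 11.73 to 12.39 in MEP. All 3 erythroid miRs (miR-451, miR-144 and miR-486) were well above background on it and on every MEP array. ST-HSC 1 carried miR-144 well above background too (4.48), which no other ST-HSC or MPP array did. It held miR-451 at 8.10, while miR-486 was not well above background there. MiR-223, of the granulocyte-monocyte line, was highest in GMP (14.04 on each array), as the label calls for. The muscle miRs miR-1 and miR-133a were well above background on MEP 1 alone, at 7.12 and 6.63. Their part in the results below was not tested. Fewer cells that carry a miR and less of it per cell cannot be told apart in sorted bulk RNA.

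MiR-29a, the member encoded on chromosome 6 alone, was lowest in MEP, with higher values in GMP and higher ones again in CMP, while the HSC subsets lay around or above CMP. In MEP its level was 9.34, 9.37 and 8.90. It was 9.85, 9.85 and 9.66 in GMP, and 10.15, 10.12 and 10.27 in CMP. By the brighter probe the myeloid groups did not overlap, so that each GMP array lay above each MEP array and below each CMP array. Such a separation was found for 25.7% of tested miRs between CMP and GMP, for 68.8% between CMP and MEP and for 66.7% between GMP and MEP. In MPP the level was 10.36, 10.45 and 10.45. ST-HSC gave 11.03 on slide 2, but 9.85 and 10.08 on slide 3, and the LT-HSC array gave 10.93. The 2 HSC arrays of slide 2 were the highest of all 16 for this member, and ST-HSC 2 and 3 lay below every CMP array. With the dimmer probe of miR-29a the place of the HSC subsets turned. There MPP was below CMP (-0.46, log2) and GMP (-0.26), and ST-HSC below CMP (-0.35) and GMP (-0.15), with both still above MEP, by 0.54 and 0.66. CMP and GMP overlapped by that probe, since CMP 3 (9.06) lay below GMP 1 and GMP 2 (9.09 each).

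By population mean the order for miR-29a was LT-HSC, MPP, ST-HSC, CMP, GMP, MEP, and no pair of neighbours in it was called. Of these neighbours, by the brighter probe, MPP and ST-HSC overlapped in their arrays, as did ST-HSC and CMP. CMP and GMP, and GMP and MEP, did not, and the LT-HSC array lay above every MPP array. The mean was 10.42 ± 0.06 (SD, n = 3) in MPP, 10.32 ± 0.63 in ST-HSC, 10.18 ± 0.08 in CMP, 9.79 ± 0.11 in GMP and 9.20 ± 0.26 in MEP. The F test over the populations called miR-29a (adjusted p = 0.00317), as it did 82.7% of the tested miRs. Of 15 pairs of populations 5 were called, each with miR-29a higher in the first: LT-HSC against MEP, LT-HSC against GMP, MPP against MEP, ST-HSC against MEP and CMP against MEP. These comparisons called 27.8%, 42.6%, 71.3%, 59.9% and 64.6% of the tested miRs, in that order. All but one of them had MEP as the lower population. Both calls of LT-HSC rest on its 1 array, the dimmest of all, and were not kept under every scaling. With the 75th percentile of all probes LT-HSC against GMP turned to -0.72 and LT-HSC against MEP was not called (adjusted p = 0.223), with no normalization between arrays they turned to -2.10 and -0.45, and with the mean of the probes LT-HSC against GMP was not called (adjusted p = 0.130). The largest with replicates on both sides was MPP against MEP, where miR-29a was higher by 1.22 ± 0.27 (log2, SE), or 2.33-fold, with an adjusted p of 0.00105.

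**Figure D1:**
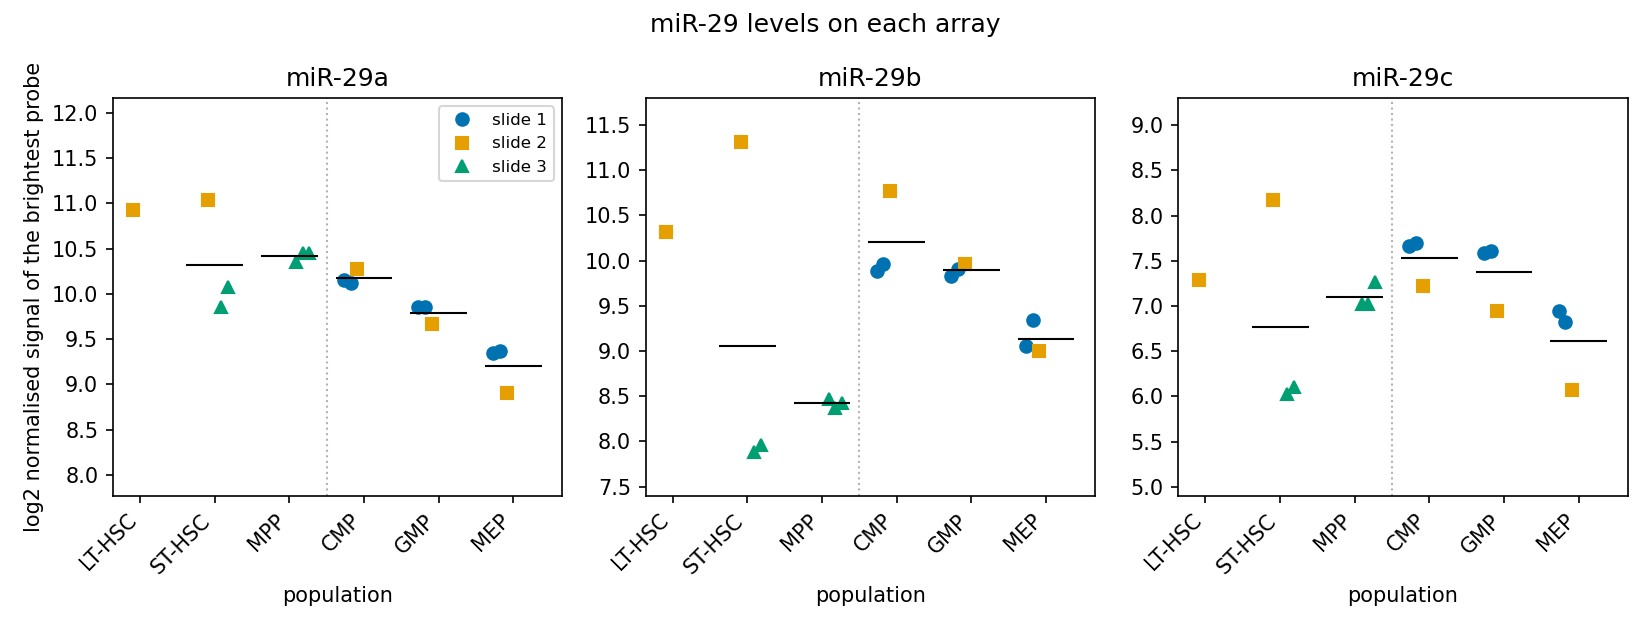
Log2 normalised signal of the brightest probe of each miR-29 member (vertical axis) on each of the 16 arrays, by population (horizontal axis). Marker and colour give the slide, black lines the mean of populations with 3 arrays, and the dotted line parts HSC subsets from myeloid progenitors; MEP is the lowest myeloid population for each member, and the ST-HSC array of slide 2 lies far above those of slide 3 for miR-29b and miR-29c.

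MiR-29b, the member made from both loci, split by slide. On slide 3 it was at 7.88 and 7.97 in ST-HSC and at 8.47, 8.37 and 8.43 in MPP, the lowest values of the 16 arrays. On slide 2 it reached 11.31 in ST-HSC 1, the highest value, and 10.31 on the LT-HSC array. The 3 ST-HSC arrays thus held the highest and the lowest level of this member in the whole series. The myeloid arrays lay between, at 9.88, 9.97 and 10.77 in CMP, at 9.83, 9.91 and 9.97 in GMP and at 9.06, 9.34 and 9.004 in MEP. Every CMP and GMP array was above every MEP array, whichever slide it lay on.

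The population means of miR-29b ran from 10.20 ± 0.49 (SD, n = 3) in CMP and 9.90 ± 0.07 in GMP to 9.13 ± 0.18 in MEP, then 9.05 ± 1.96 in ST-HSC and 8.42 ± 0.05 in MPP, with the LT-HSC array above all of these means. With the dimmer probe the LT-HSC array instead lay below CMP (-0.55, log2) and GMP (-0.36). The residual SD of the fit was 0.91 for this member, against a median of 0.44 over all tested miRs, and 12 of 237 miRs had a larger one. No pair of the 15 was called, and the F test gave an adjusted p of 0.141. The 3 pairs of MPP with CMP, GMP and MEP did not overlap, as was so for 58.6%, 62.9% and 82.7% of tested miRs, and no slide holds MPP together with any of these.

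MiR-29c, the member encoded on chromosome 1 alone, gave the dimmest probe of the family and a smaller split of the same kind. ST-HSC 1 was the highest array at 8.17, and ST-HSC 2 and 3 were among the lowest at 6.03 and 6.10. MPP held 7.02, 7.02 and 7.26, and the LT-HSC array 7.29. In the myeloid populations the arrays of slide 1 lay above that of slide 2 each time. CMP gave 7.66, 7.69 and 7.22, GMP gave 7.58, 7.61 and 6.95, and MEP gave 6.95, 6.82 and 6.07, in each case with slide 2 last. GMP 3 and MEP 1 met at 6.95, so that GMP and MEP touched, while CMP lay wholly above MEP. The means ran from 7.53 ± 0.27 (SD, n = 3) in CMP and 7.38 ± 0.38 in GMP to 7.10 ± 0.14 in MPP, 6.77 ± 1.22 in ST-HSC and, lowest, 6.61 ± 0.47 in MEP, with the LT-HSC array between GMP and MPP. No pair of the 15 was called, and the F test gave an adjusted p of 0.396.

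The 3 members were ranked against all tested miRs for the gap between the ST-HSC arrays of the different slides. ST-HSC 1 exceeded the mean of ST-HSC 2 and 3 by 3.39 log2 units for miR-29b, and no other of the 237 miRs had as large a rise. For miR-29c the gap was 2.11, with 11 miRs larger, and for miR-29a it was 1.07, with 41 larger. Over all tested miRs the median gap was -0.01, with 5% to 95% of them between -1.83 and 2.00. ST-HSC 2 and 3, which shared a slide, differed by 0.08 for miR-29b, 0.08 for miR-29c and 0.23 for miR-29a. Slide, sort and replicate cannot be told apart here, since 1 ST-HSC array stands alone on slide 2. The number of family tests called also changed with that array. Over the 15 pairs and 3 members 5 of 45 tests were called with it and 25 without it. With all arrays and the slide as a block 34 were. The block lowered the median residual SD over all tested miRs too, from 0.44 to 0.23. No share of all tested miRs was taken over the 15 pairs together, so whether these counts are particular to the family was not tested.

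The first comparison of the myeloid branches asked how the family stands in MEP, and here all members gave 1 direction on both slides. CMP exceeded MEP by 0.98 ± 0.27 (log2, SE) for miR-29a, 1.07 ± 0.66 for miR-29b and 0.91 ± 0.47 for miR-29c, that is 1.97-, 2.10- and 1.88-fold. MiR-29a was called (adjusted p = 0.00538), and miR-29b and miR-29c were not (0.169 and 0.0999), where 64.6% of tested miRs were called. Within slide 1 the differences were 0.78, 0.72 and 0.80 for miR-29a, miR-29b and miR-29c, and within slide 2 they were 1.37, 1.76 and 1.15. Without ST-HSC 1, whose spread from the other ST-HSC arrays enters the shared error, all 3 were called (adjusted p = 0.000182, 0.000735 and 0.00658). That error is shared by all tested miRs, and the share of them called without this array was not taken. With the slide as a block in the fit the differences were the same and their SE fell to 0.13, 0.19 and 0.11, with adjusted p-values of 2.95e-05, 2.52e-04 and 2.01e-05. Under that block 82.3% of the tested miRs were called.

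GMP, the other myeloid branch, also held more of each member than MEP. The difference was 0.59 ± 0.27 (log2, SE) for miR-29a, 0.77 ± 0.66 for miR-29b and 0.77 ± 0.47 for miR-29c, and none was called (adjusted p = 0.0696, 0.326 and 0.174) where 62.9% of tested miRs were. Without ST-HSC 1 all 3 were called (adjusted p = 0.00614, 0.00718 and 0.0185), but the share of all tested miRs called without it was not taken. Within slide 1 it was 0.50, 0.67 and 0.72, and within slide 2 it was 0.77, 0.96 and 0.88. With the slide as a block all 3 were called, with adjusted p-values of 0.00144, 0.00273 and 8.27e-05, where 81% of tested miRs were. A higher level outside MEP was widespread among the miRs, and the family was no exception to it. Of all tested miRs 62% were higher in CMP than in MEP on both slides and 61.6% higher in GMP, and the median miR was higher by 0.55 in CMP and by 0.44 in GMP. Against that median the members were higher by 0.36 to 0.52 in CMP and by 0.14 to 0.32 in GMP, and under each of 5 scalings of the arrays all 3 stayed above it.

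CMP and GMP, which precede one another on the granulocyte-monocyte branch, were close. CMP exceeded GMP by 0.39 ± 0.27 (log2, SE) for miR-29a, by 0.30 ± 0.66 for miR-29b and by 0.14 ± 0.47 for miR-29c, and none was called (adjusted p = 0.518, 0.930 and 0.935) where 7.59% of tested miRs were. CMP was the higher within both slides 1 and 2 for each member, as it was for 32.9% of tested miRs. Within slide 1 the differences were 0.28, 0.05 and 0.08 for miR-29a, miR-29b and miR-29c, and within slide 2 they were 0.61, 0.80 and 0.27. With the slide as a block miR-29a alone was called (adjusted p = 0.0442), where 28.7% of tested miRs were.

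**Figure D2:**
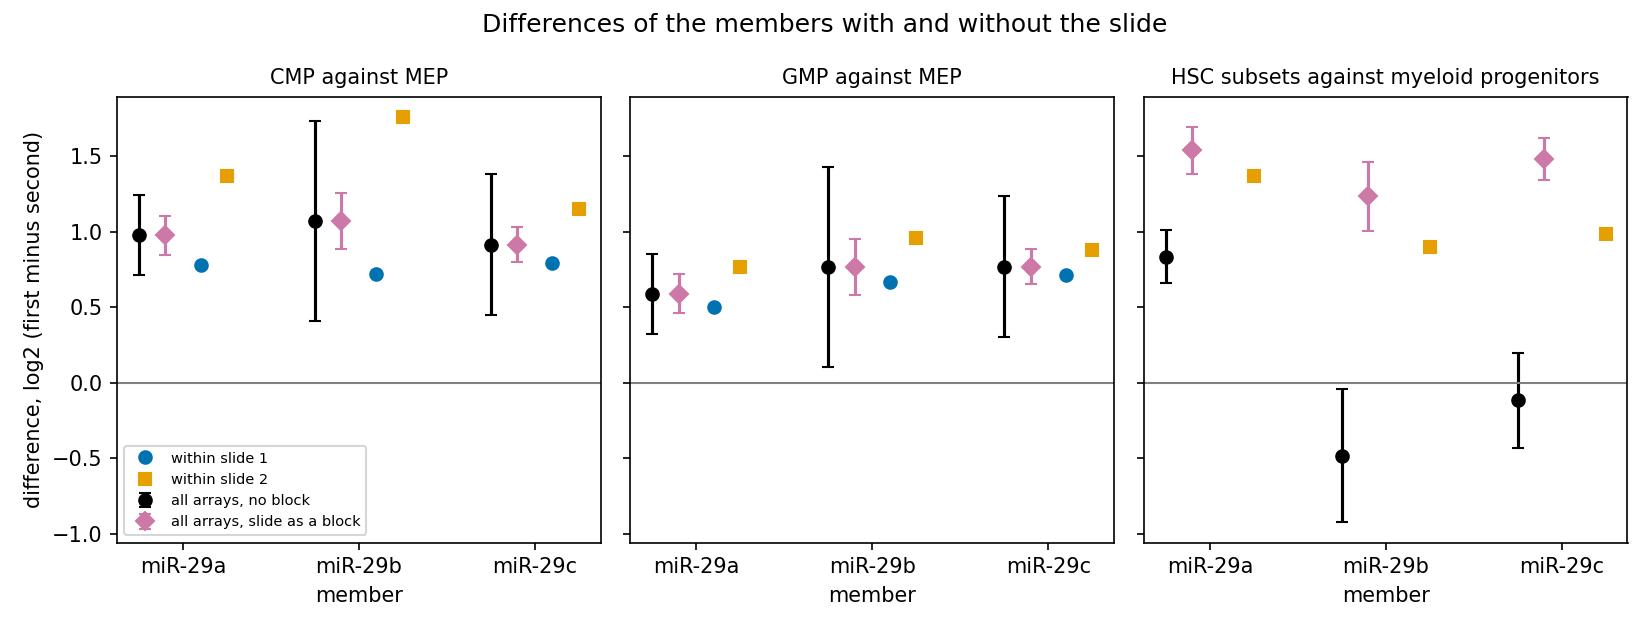
Difference of each miR-29 member (log2, first group minus second, vertical axis) in 3 comparisons. Black circles with SE bars are the fit over all arrays without the slide, pink diamonds with SE bars the fit with the slide as a block, and blue circles and orange squares the plain differences within slides 1 and 2; CMP and GMP lie above MEP in every fit, while miR-29b and miR-29c change sign between the fits for HSC subsets against myeloid progenitors.

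Comparing the HSC subsets with the myeloid progenitors addresses the tie of the family to stem cells, and only miR-29a gave a call. Its level was higher in the HSC subsets by 0.83 ± 0.18 (log2, SE), or 1.78-fold, with an adjusted p of 0.00187, in a comparison that called 48.1% of tested miRs and 25.3% as higher in the HSC subsets. The 7 HSC arrays lay between 9.85 and 11.03 with a median of 10.45, and the 9 myeloid arrays between 8.90 and 10.27 with a median of 9.85, so the groups overlapped. The tested difference is between population means of equal weight, so the single LT-HSC array counts as much as the 3 arrays of ST-HSC or MPP. Without the LT-HSC array miR-29a was higher by 0.65. Over all arrays the median miR differed by 0.06. Scaled to the 75th percentile of all probes the difference was 0.27 and was not called (adjusted p = 0.397). With no normalization between arrays the difference turned to -0.25 (adjusted p = 0.671), at a median of -0.60 over all miRs.

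For miR-29b and miR-29c the direction of this comparison depended on how the slide was treated. Without the slide in the fit miR-29b gave -0.48 ± 0.44 (log2, SE, HSC subsets minus myeloid progenitors) and miR-29c gave -0.12 ± 0.31, with adjusted p-values of 0.409 and 0.762. With the LT-HSC array left out they gave -1.01 and -0.24. On slide 2 alone, the 2 HSC arrays exceeded the 3 myeloid arrays by 0.90 for miR-29b, 0.99 for miR-29c and 1.37 for miR-29a. With the slide as a block all 3 members were called higher in the HSC subsets, by 1.54 ± 0.16 for miR-29a, 1.23 ± 0.23 for miR-29b and 1.48 ± 0.14 for miR-29c (adjusted p = 1.47e-05, 0.00112 and 7.79e-06), where 44.3% of tested miRs were called and 27% as higher. That fit ties slide 3 to the others through the ST-HSC arrays, that is through the gap of 3.39 for miR-29b, and so rests on ST-HSC 1. Left without ST-HSC 1 and without the block, the fit instead called miR-29b lower in the HSC subsets, at -0.86 (adjusted p = 0.000363), with miR-29a higher by 0.72 (adjusted p = 0.000154). The arrays thus give no settled direction for miR-29b or miR-29c between HSC subsets and myeloid progenitors.

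Within the HSC subsets, ST-HSC and MPP could be compared on slide 3. There the mean of both ST-HSC arrays minus that of the 3 MPP arrays was -0.45 for miR-29a, -0.50 for miR-29b and -1.04 for miR-29c. With ST-HSC 1 included the populations overlapped for each member, while 35.4% of tested miRs did not overlap. Over all arrays the differences were -0.10 ± 0.27 (log2, SE), 0.63 ± 0.66 and -0.33 ± 0.47 with no call, in a comparison that called 4.64% of tested miRs. With the slide as a block miR-29c was called (adjusted p = 3.13e-04) and miR-29a and miR-29b were not (0.0519 and 0.126), where 17.7% of tested miRs were. LT-HSC and ST-HSC met only on slide 2, 1 array against 1, where LT-HSC minus ST-HSC was -1.0 for miR-29b, -0.88 for miR-29c and -0.10 for miR-29a. Over all arrays no member was called between them, where 22.8% of tested miRs were. Under the slide block miR-29b and miR-29c were called lower in LT-HSC, by the same -1.0 and -0.88 (adjusted p = 0.0254 and 0.00453), where 48.5% of tested miRs were called. The step from MPP to CMP lies on different slides throughout, and MPP against CMP gave 0.24 ± 0.27, -1.78 ± 0.66 and -0.42 ± 0.47 for miR-29a, miR-29b and miR-29c (adjusted p = 0.498, 0.0535 and 0.498), where 32.9% of tested miRs were called. With the block the sign turned for miR-29b and miR-29c, and all 3 members were called higher in MPP, by 1.42 for miR-29a, 1.44 for miR-29b and 2.11 for miR-29c (adjusted p = 0.00196, 0.0145 and 0.000138), where 20.7% of tested miRs were. These values too rest on ST-HSC 1 as the tie between the slides.

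Because the members of a pair share a transcript, their ratio within an array was followed, taken on the quantile-normalised signal. A factor per array cancels in a ratio of unnormalised signals. Quantile normalization maps each array in its own way, so the ratios below can differ from those of unnormalised signals. The log2 ratio of miR-29b to miR-29a, partners on chromosome 6, was -2.12 to -1.88 on the 5 arrays of slide 3. On the other slides it was -0.29 to 0.06 (slide 1) and -0.62 to 0.50 (slide 2). It was lower in the HSC subsets than in the myeloid progenitors by a mean difference of -1.51 (exact two-sided permutation test over arrays, p = 0.000962, adjusted over 3 ratios 0.00144). That test exchanges arrays across slides, although slide 1 held myeloid arrays only and slide 3 HSC arrays only, so slide and population cannot be told apart in its p. Within slide 2 the difference was -0.47 (exact two-sided permutation test, p = 0.3, where the smallest p that 2 arrays against 3 allow is 0.1), and 1 of the 2 HSC arrays there, ST-HSC 1 at 0.28, lay among the myeloid arrays of that slide (0.11 to 0.50). ST-HSC gave -1.97 and -2.12 on slide 3, so arrays of a single population were as far apart as HSC subsets and myeloid progenitors.

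The ratio of miR-29b to miR-29c, partners on chromosome 1, was 1.16 to 1.86 on the arrays of slide 3, 2.11 to 2.52 for slide 1 and 2.94 to 3.55 for slide 2. These ranges do not overlap, and on slide 2 the arrays of both HSC subsets and myeloid progenitors lay above all arrays of the other slides. HSC subsets and myeloid progenitors differed by -0.60 (exact two-sided permutation test, p = 0.0847) and by -0.09 within slide 2. With no normalization between arrays the difference was -0.62 (exact two-sided permutation test, p = 0.0291), so the call depended on the normalization. That test too exchanged arrays across slides. The ratio of miR-29a to miR-29c, which lie on different chromosomes, was higher in the HSC subsets by 0.91 (exact two-sided permutation test, p = 1.75e-04, adjusted 5.24e-04), again with arrays exchanged across slides, and by 0.38 within slide 2 (exact two-sided permutation test, p = 0.3). On slide 2 the LT-HSC array had the highest value (3.64), while ST-HSC 1 (2.86) lay within the myeloid arrays of that slide (2.72 to 3.05).

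**Figure D3:**
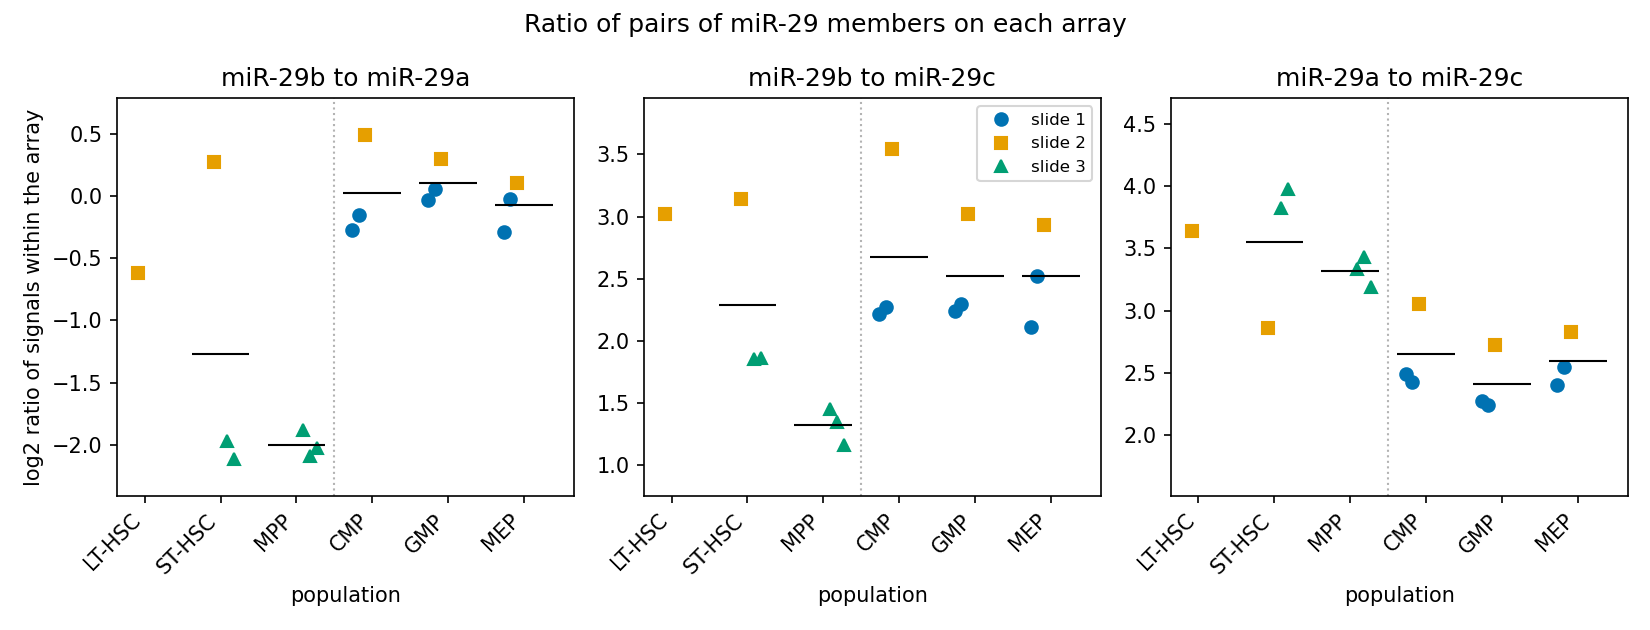
Log2 ratio of the quantile-normalised signals of pairs of miR-29 members within each array (vertical axis), by population (horizontal axis). Marker and colour give the slide and black lines the mean of populations with 3 arrays; the ratio of miR-29b to miR-29a is near -2 on all 5 arrays of slide 3, in ST-HSC and MPP alike, and the ratio of miR-29b to miR-29c forms a separate band for each slide.

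Within slides the members moved together. On the 6 arrays of slide 1, which share a scanner and hold myeloid cells only, Pearson's r was 0.924 between miR-29b and miR-29a, 0.937 between miR-29b and miR-29c and 0.955 between miR-29a and miR-29c. Over all 16 arrays r was 0.301, 0.740 and 0.551 in the same order, and after each slide was centred on its mean it was 0.892, 0.915 and 0.876. These are descriptions over arrays that share slides and, within a slide, populations.

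The probes of a member should rank the populations alike, and for miR-29c they did. Its brighter and dimmer probes were apart by a mean of 0.36 on slide 1, 0.34 on slide 2 and 0.34 on slide 3. For miR-29a the mean gap was 0.80, 1.15 and 1.73 for slides 1, 2 and 3, and for miR-29b it was 1.65, 1.73 and 2.54. Between the ST-HSC arrays of slides 3 and 2 the gap grew by 0.72 for miR-29b, 0.43 for miR-29a and 0.04 for miR-29c, against a median of 0.12 over 129 miRs with at least a pair of probes, of which 5, 12 and 82 grew more. MiR-29c was thus low in ST-HSC on slide 3 with no widening of its gap. The cause of the widening was not tested. The dimmer probe of miR-29a gave 0.20 for HSC subsets against myeloid progenitors where the brighter one gave 0.83, and so the size of that difference hangs on the probe. For miR-29b the dimmer probe gave -1.29 there where the brighter one gave -0.48. In MPP against CMP the dimmer miR-29b probe gave -2.90 and the brighter one -1.78. For CMP against MEP the dimmer probes gave 1.005, 1.44 and 0.91 for miR-29a, miR-29b and miR-29c, and for GMP against MEP 0.81, 1.26 and 0.77, all in the direction of the brighter ones.

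**Figure D4:**
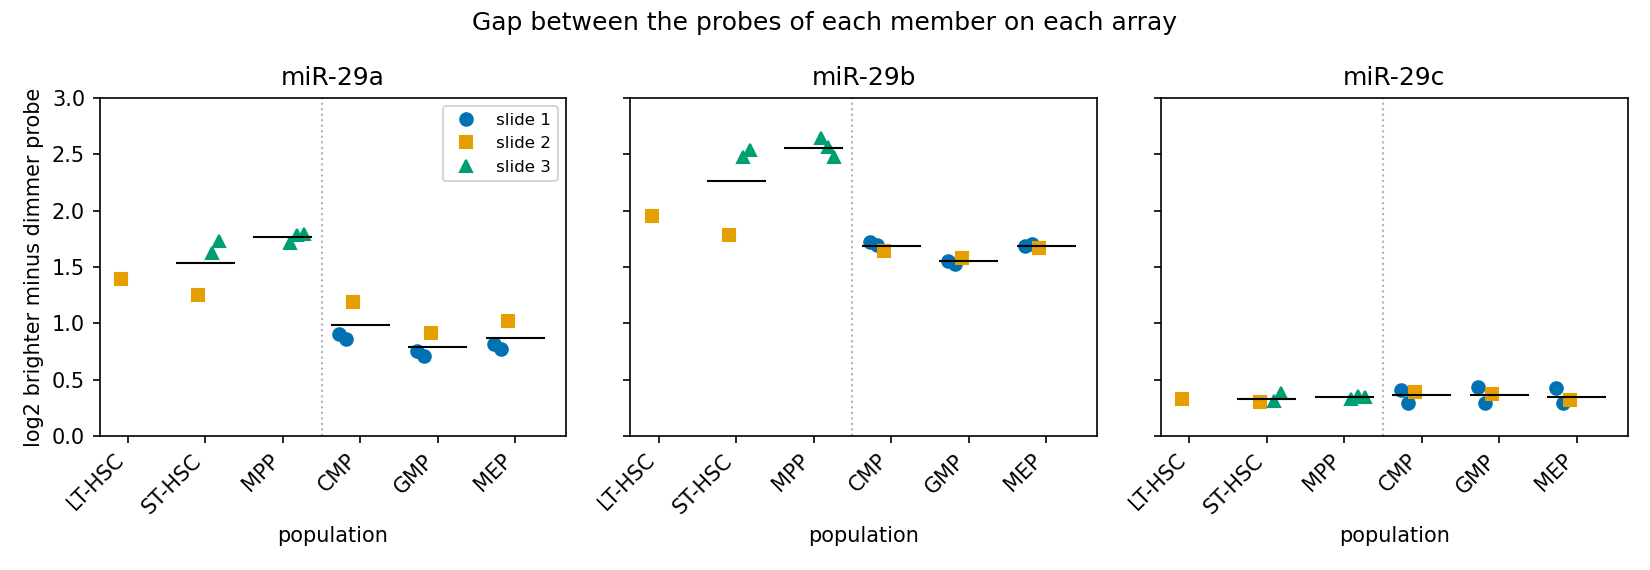
Gap between the brighter and the dimmer probe of each miR-29 member (log2, vertical axis) on each array, by population (horizontal axis). Marker and colour give the slide and black lines the mean of populations with 3 arrays; for miR-29a and miR-29b the 5 arrays of slide 3 lie above all others, and for miR-29c all 16 arrays lie between 0.29 and 0.43.

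The strands opposite the guides, called miR-29a*, miR-29b* and miR-29c* on the array, tell the loci apart where the guide of miR-29b does not. They are shown because each comes from 1 hairpin, 5′ to 3′ from RefSeq (GRCm38.p6) with bases 2 to 8 in capitals.
mmu-miR-29a-5p: aCUGAUUUcuuuugguguucag
mmu-miR-29b-1-5p: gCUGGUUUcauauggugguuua
mmu-miR-29c-5p: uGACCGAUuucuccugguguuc
The annotation of the arrays places the miR-29b* probes on chromosome 6, next to those of miR-29a*. MiR-29c* passed the background call on no array. MiR-29b* was well above background on 8 arrays with its best probe, namely on all 5 arrays of slide 3 and on CMP 1, GMP 1 and GMP 2, at 13.2 to 36.3 units before normalization. MiR-29a* was so on ST-HSC 1, MPP 2 and MPP 3 only, at 8.79 to 14.3 units. No MEP array and no LT-HSC array detected any of the 3 strands. On slide 3 the opposite strand of miR-29b was thus detected on each array where its guide was at its lowest. Those arrays also had the most miRs well above background (202 to 226, against 142 to 196 elsewhere), and no array of slide 2 detected miR-29b*. Whether the detection of these strands followed the slide was not tested. The units of slide 1 stand over a higher background, with the 95th percentile of the negative controls at 9.94 to 44.3 units there against 1.53 to 3.35 elsewhere, and the depth of these signals allows no fold.

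The 3 miRs outside the family with the highest Pearson r to each member over the 16 arrays were taken as its closest companions. For miR-29a these were miR-146a (r = 0.928), miR-26a (0.922) and miR-130a (0.866), and all 3 kept an r of at least 0.85 after each slide was centred (0.922, 0.944 and 0.850). For miR-29b they were miR-15a (0.938), miR-652 (0.903) and miR-142-3p (0.866), which fell to 0.775, 0.788 and 0.515 when the slides were centred. MiR-142-3p is a miR of blood cells in general. For miR-29c they were miR-872 (0.796), miR-652 (0.775) and miR-101a (0.759), with 0.773, 0.785 and 0.714 after centring. The companions of miR-29b were all higher in ST-HSC 1 than in the other ST-HSC arrays, by 1.59, 1.80 and 2.12, as was miR-29b by 3.39. They were picked by r over these same arrays, ST-HSC 1 among them, so their rise is not independent of that choice. It was also not particular to miR-29b, since the companions of miR-29a and miR-29c were all higher in ST-HSC 1 too. The points share slides and populations, so no p is given.

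Other miRs known to act on the messengers of DNA methyltransferases were called in both directions between HSC subsets and myeloid progenitors. The list held miR-148a, miR-148b and miR-152, which share a seed, with miR-143, miR-342-3p and miR-185, and 5 of its 6 members were tested, since miR-143 passed the background call on no array. The HSC subsets held 3 at a higher level than the myeloid progenitors (miR-342-3p by 1.11, miR-152 by 0.71 and miR-148a by 0.39) and 2 at a lower one (miR-185, at -1.31, and miR-148b, at -0.64), where 25.3% of all tested miRs were called higher and 22.8% lower. MiR-152 was well above background on only 3 of the 7 HSC arrays and 2 of the 9 myeloid arrays. The median of the 5 was 0.39, against 0.06 over all tested miRs, and with the slide as a block 2 were higher, 1 was lower and 2 were not called, where 27% of all tested miRs were called higher and 17.3% lower. In GMP 4 were higher than in MEP and none lower, where 40.9% of all tested miRs were called higher and 21.9% lower. Among them miR-148a was higher by 2.28. MiR-342-3p was not well above background on any MEP array and was at least 3.72-fold higher in GMP. For that bound each MEP array was given the dimmest level at which any of its probes still passed the background call, or the probe's own level if higher. MiR-152 was not well above background on any MEP array either and has no fold by that bound. In CMP 3 were higher than in MEP and none lower, where 43.9% of all tested miRs were called higher and 20.7% lower. Among them miR-152 was not well above background on any CMP or MEP array, and miR-342-3p was at least 3.47-fold higher. Under the slide block 4 were higher and 1 lower in each of these comparisons, the lower one being miR-185 at -0.78 in GMP (adjusted p = 0.00228) and -0.83 in CMP (adjusted p = 0.00135), where 55.7% and 56.1% of all tested miRs were called higher and 25.3% and 26.2% lower. With the members at background taken at their bound, the median was 0.89 in GMP, against 0.44 over all tested miRs, and 0.69 over 4 members in CMP, against 0.55.

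MiRs tied to HSC self-renewal formed the other list, with 10 tested of 10. Both lists were chosen with earlier results of these data known, so their counts and medians are descriptions and no test. In the HSC subsets 9 were higher than in the myeloid progenitors and none lower, where 25.3% of all tested miRs were called higher, with a median of 1.91 against 0.06 over all tested miRs. With the block all 10 were higher, where 27% of all tested miRs were. MiR-125b-5p was higher by 3.00, miR-99a by 2.92 and miR-130a by 1.85, and miR-22, at 0.07 (adjusted p = 0.847), was the one not called. MiR-125a-5p passed the background call on all 7 arrays of the HSC subsets and on 0 of the 9 myeloid arrays, and with it at its bound the median was 1.77. The difference of miR-29a, 0.83, lay below the median of the list. In MPP against CMP, which share no slide, 6 were higher, 1 lower and 3 not called. Of all tested miRs 17.3% were called higher there and 15.6% lower. The lower one was miR-130a, at -1.08 (adjusted p = 0.0419 in limma). With the block 8 were higher, none lower and 2 not called, where 15.6% of all tested miRs were called higher and 5.06% lower. MiR-130a was then not called, at 0.55. In CMP 9 were higher than in MEP, where 43.9% of all tested miRs were called higher. Of these miR-125a-5p was not well above background on any CMP or MEP array, and let-7e and miR-100 on no MEP array. With the latter at their bound and without miR-125a-5p the median of the list was 2.51, against 0.55 over all tested miRs, where the miR-29 members differed by 0.91 to 1.07.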

How the data were processed

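The authors deposited, for each of 16 arrays, the spot intensity from Agilent Feature Extraction (versions 9.5.3.1 for slide 1 and 10.2.1.3 for slides 2 and 3, per the file headers), background-subtracted and not normalized, with yes-or-no spot flags, and log2 values of all arrays, quantile-normalized with limma per the methods. Those values followed the rank of the median foreground (Spearman rho 1 on every array) and were kept as an alternative.

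Control spots and outlier spots were left out, spots of a probe averaged, and the probe means quantile-normalized, raised to a floor of 3.07 units (from the negative controls: their 95th percentile on each array, then the median of these) and put on a log2 scale. Probes well above background (a share of at least 0.5 of the spots) on at least 3 arrays were kept, 493 probes of 237 miRs, with the brightest for each miR. One mean per population was fitted with lmFit and eBayes (limma 3.58.1, R 4.3.3, data.table version 1.17.8, jsonlite 2.0.0; 10 residual and 3.1 prior degrees of freedom), with two-sided tests and Benjamini-Hochberg adjustment within each comparison. LT-HSC, with 1 array, was taken to vary like the others. The fit was tested on simulated data. No spot was saturated, and the number of arrays limits the precision.

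Named miRs were the members, their opposite strands, both lists and, for each member, the 3 most correlated miRs. The members and lists were chosen with earlier results of these data known. Groups came from the sample titles. Alternatives covered normalization, background correction with normexp (offset 50), floors, detection filters, the mean of the probes, a block for slide or for replicate number, a trend of variance with intensity, the deposited log2 values, and each array left out.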

Additional observations from a re-analysis of the deposited data

How the results depend on the processing

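The direction of CMP and GMP against MEP held for all 3 members in every setting run, and the call for miR-29a in CMP and in MPP against MEP in every setting run. Over 42 settings CMP stayed above MEP by 0.78 to 1.81 for miR-29a (called in 42), 0.72 to 1.79 for miR-29b (17) and 0.42 to 1.34 for miR-29c (16), and GMP above MEP by 0.44 to 1.65 (21), 0.55 to 1.73 (17) and 0.18 to 1.26 (16).

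Counts are of members called, out of 3, or out of 45 tests for all pairs. Shares over all tested miRs were taken for the reported fit and the slide block only. Counts under other settings have no such share beside them. As reported they were 1 for the F test, 1 for HSC subsets against myeloid progenitors, 5 for all pairs, 1 for CMP against MEP and 0 for GMP against MEP, ST-HSC against MPP, MPP against CMP, CMP against GMP and LT-HSC against ST-HSC, with 9 of the 45 pair tests at an unadjusted p under 0.05 in limma.

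With the slide as a block they were 3, 3, 34, 3, 3, 1, 3, 1 and 2 in that order, and with the deposited log2 values and the block, an alternative chosen after seeing the data, 3, 3, 38, 3, 3, 2, 3, 1 and 2. Under the block the sign turned for miR-29b to 1.23 for HSC subsets against myeloid progenitors, -0.50 for ST-HSC against MPP and 1.44 for MPP against CMP, and for miR-29c to 1.48 and 2.11 in the first and last of these. With the deposited values and the block these were 1.10, -0.40, 1.22, 0.99 and 1.43. On slides 1 and 2 alone with the block, also chosen later, HSC subsets against myeloid progenitors turned to 0.92 for miR-29b and 1.03 for miR-29c, and 3 members were called there, 3 in CMP against MEP, 3 in GMP against MEP and 2 in LT-HSC against ST-HSC. Slide 1 alone, chosen later, called 3 in CMP and 3 in GMP against MEP, as did the block with any 1 myeloid array left out, where CMP against GMP called 0 or 1.

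Scaling to the 75th percentile of all probes called 2 by F, 0 for HSC subsets against myeloid progenitors, 11 pairs, and 3, 3 and 1 for CMP against MEP, GMP against MEP and MPP against CMP. Scaling to the detected probes called 9 pairs, 1 for GMP against MEP and 1 for MPP against CMP. No normalization called 2 by F, 10 pairs, 2 for CMP against MEP and 2 for GMP against MEP. The deposited values called 8 pairs, and they and the mean of the probes called 1 for GMP against MEP and 1 for MPP against CMP. The filter on all 16 arrays and the intensity trend each called 1 for MPP against CMP. MiR-29a turned to -0.25 for HSC subsets against myeloid progenitors, to -2.10 for LT-HSC against GMP and to -0.45 for LT-HSC against MEP with no normalization, to -0.72 for LT-HSC against GMP with the 75th percentile of all probes, and with the mean of the probes to 0.00715 for ST-HSC against MPP and -0.11 for MPP against CMP. MiR-29c turned to 0.15 for ST-HSC against MPP with the 75th percentile of detected probes. The LT-HSC array was the dimmest, and the cause of these turns was not tested.

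The ratio of miR-29b to miR-29c between HSC subsets and myeloid progenitors passed the threshold under some settings. The difference was -0.62 under each of the percentile scalings and no normalization (exact permutation p = 0.0291). These settings are 1 result, since a factor per array leaves the ratio unchanged. The difference was -0.97 with the mean of the probes (exact permutation p = 0.0215), -0.77 without LT-HSC 1 (0.0266) and -0.80 without ST-HSC 1 (0.0214). Each of these tests exchanged arrays across slides, and within slide 2 the difference as reported was -0.09. For the ratio of miR-29b to miR-29a the difference was -0.47 within slide 2.

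Leaving out each array in turn gave 1 to 3 by F, 1 to 2 for HSC subsets against myeloid progenitors, 5 to 25 pairs, 1 to 3 for CMP against MEP, 0 to 3 for GMP against MEP, 0 to 1 for MPP against CMP and 0 to 3 for LT-HSC against ST-HSC, each upper end reached without ST-HSC 1. Some differences changed sign over these. For ST-HSC against MPP miR-29a ranged from -0.46 to 0.14, miR-29b from -0.50 (without ST-HSC 1) to 1.21, and miR-29c from -1.03 to 0.030, and with ST-HSC 2 or 3 left out miR-29a turned to 0.14 or 0.024. MiR-29c ranged from -0.35 to 0.0084 for HSC subsets against myeloid progenitors, turned without ST-HSC 2, and from -0.075 to 0.30 for CMP against GMP, turned without GMP 3. The ratios ranged from -1.81 to -1.39 (miR-29b to miR-29a), -0.80 to -0.46 (miR-29b to miR-29c) and 0.82 to 1.02 (miR-29a to miR-29c).

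Replicate numbers in the titles of 10 arrays did not pair the samples, with correlations of deviations of 0.10, 0.11, -0.11 and 0.27. With the replicate number as a block on those arrays, slide 2 was left out. All HSC arrays kept lay on slide 3 and all myeloid arrays on slide 1, so slide and population cannot be told apart between them. That block called 3 members for each of HSC subsets against myeloid progenitors, CMP against MEP, GMP against MEP and ST-HSC against MPP. For MPP against CMP it called 2. In the HSC subsets miR-29a was higher than in the myeloid progenitors (0.38), and miR-29b (-1.62) and miR-29c (-0.85) were lower. MiR-29b turned to -0.47 in ST-HSC against MPP.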
